A study of Mus musculus with 4 samples.

Results

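The ribosome footprint landscape of control newborn mouse epidermis was described from the 2 control (Ctrl) libraries of a ribosome profiling series of 4 libraries, over all 10327 genes with a value. Both libraries held epidermal keratinocytes taken at postnatal day 0. The animals carried K14Cre, a Cre recombinase driven by the keratin 14 promoter and therefore active in basal keratinocytes, together with 1 floxed and 1 unfloxed Mettl14 allele (Mettl14F/+). Control cells that express Cre can thus lose 1 copy of Mettl14, and they are not wild type although the table's column headers call them WT. Whether Ctrl 1 and Ctrl 2 are separate animals is not stated in the labels, and differences between them may be technical. The knockout libraries of the series were not compared here.

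Ribosome profiling sequences the stretch of mRNA that a ribosome shields from nuclease. A gene's footprint count therefore mixes the amount of its mRNA with the number of ribosomes on each copy, and at equal mRNA level and density a long coding sequence collects more footprints than a short one. The epidermis renews itself from a basal layer that makes keratins 5 and 14. Cells that leave this layer switch to keratins 1 and 10 in the spinous layers, reinforce their desmosomes, and in the granular layer make filaggrin, loricrin and the other proteins that are finally cross-linked into the cornified envelope. A keratin filament is built from pairs of an acidic type I and a basic type II chain.

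Over the listed genes Ctrl 1 held 933574 reads and Ctrl 2 held 624167. Thus 1 read was worth 1.07 and 1.60 CPM (counts per 1000000 reads of the listed genes). Every share of footprints given here is a share of these reads. The median gene had 27 reads in Ctrl 1 and 19 in Ctrl 2, and 1098 genes had at least 100 reads in both. Shares of the total carried little counting error at this depth. The widest 95% interval of any gene class (exact Clopper-Pearson) spanned 0.203 percentage points in Ctrl 1 and 0.248 in Ctrl 2. These intervals cover counting error only, since reads amplified by PCR are not independent molecules.

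Footprints were concentrated on a small number of genes. Krt1 alone held 8.91% of footprints in Ctrl 1 and 7.42% in Ctrl 2. The 10 highest genes of each library held 18.5% and 16.3%, and the 100 highest held 34.3% and 32.2%. On the mean of both libraries 437 genes held 50% of all footprints (397 in Ctrl 1 and 467 in Ctrl 2), 1925 genes held 75% and 4324 held 90%. At the other end, 2021 genes below 10 CPM shared 1.17% of footprints. The libraries ranked the top in nearly the same way, with 9 of the 10 highest, 26 of the 30 highest and 89 of the 100 highest genes in common.

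**Figure D1:**
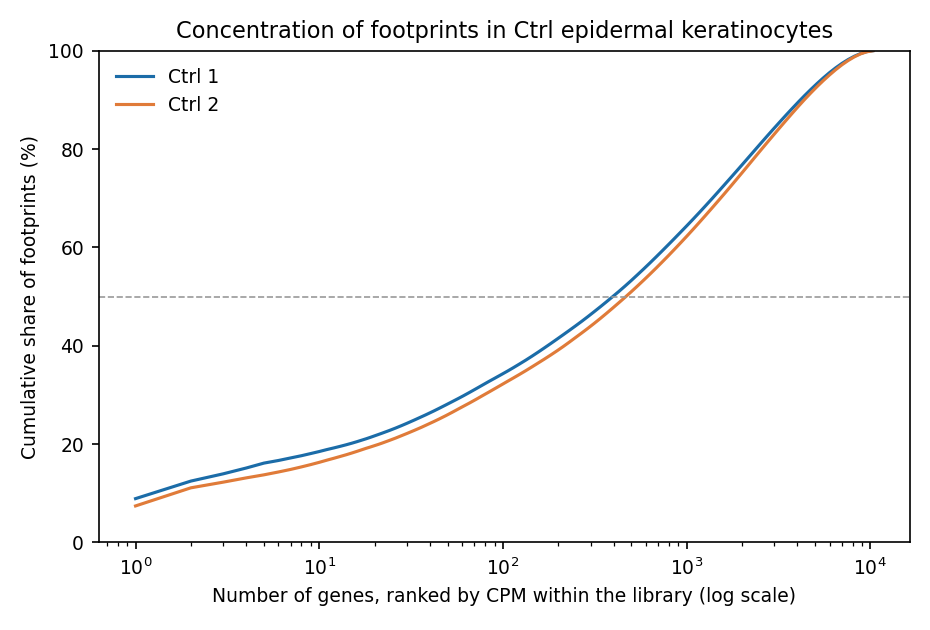
Cumulative share of footprints (%, vertical axis) against the number of genes ranked by CPM within each library (log scale), for Ctrl 1 and Ctrl 2; the dashed line marks 50%. The Ctrl 1 curve lies above the Ctrl 2 curve at the top of the ranking and reaches 50% at 397 genes, against 467 in Ctrl 2.

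The keratin pair of the spinous layers led the landscape. Krt1 (ENSMUSG00000046834, chromosome 15, 101845426 to 101850794, minus strand, GRCm38), the type II keratin of this pair, had 89091 CPM in Ctrl 1 and 74240 CPM in Ctrl 2, a mean of 81665 ± 10501 CPM (SD, n = 2). Krt10 (ENSMUSG00000019761, chromosome 11, 99385254 to 99389364, minus strand), its type I partner, had 35677 and 36820 CPM, a mean of 36249 ± 809. They held ranks 1 and 2 in each library. Together they took 12.5% of footprints in Ctrl 1 and 11.1% in Ctrl 2. Per kb of coding sequence, which sets genes of unlike length on the same scale, Krt1 stood at 46620 and 38849 CPM per kb and Krt10 at 21198 and 21878 CPM per kb, a ratio of Krt1 to Krt10 of 2.20 in Ctrl 1 and 1.78 in Ctrl 2. Footprints per kb thus differed between the chains of this pair. Whether mRNA level or ribosomes per mRNA differed cannot be told from footprints alone.

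Both keratins have head and tail domains built of glycine loops, a feature shared with loricrin (Lor), the main glycine-rich protein of the cornified envelope. The coding stretches of 90 bases that hold the most glycine codons in each gene are shown, 5′ to 3′ on the coding strand, with glycine codons in capitals. They are taken from the GENCODE transcripts of GRCm38 and lie at chr15:101850320-101850409 for Krt1, chr11:99388949-99389038 for Krt10 and chr3:92081828-92081917 for Lor, all on the minus strand and all within coding exons.
Krt1: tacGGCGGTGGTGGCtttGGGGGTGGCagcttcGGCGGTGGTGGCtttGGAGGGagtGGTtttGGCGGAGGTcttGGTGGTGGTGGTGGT
Krt10: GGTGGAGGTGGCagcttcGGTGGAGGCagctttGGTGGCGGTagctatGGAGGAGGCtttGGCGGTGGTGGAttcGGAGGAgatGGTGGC
Lor: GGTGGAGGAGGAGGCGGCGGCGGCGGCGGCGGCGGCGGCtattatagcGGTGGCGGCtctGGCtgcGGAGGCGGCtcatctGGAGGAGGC
Of the 30 codons in each stretch, 22 encode glycine in Krt1, 21 in Krt10 and 23 in Lor. Over the whole coding sequence glycine made up 21.7% of the codons of Krt1, 24.4% of those of Krt10 and 55.3% of those of Lor. Dmkn, which encodes the secreted epidermal protein dermokine, had 20.2%.

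Weighted by footprints, 9.14% of the codons of the control epidermis were glycine codons, against a mean of 6.60% over genes. The weighted value was 9.19% in Ctrl 1 and 9.08% in Ctrl 2. The 44 genes in which at least 20% of codons encode glycine held 13.1% of all footprints, most of them on Krt1 and Krt10. This weighting uses the makeup of the whole coding sequence of each gene, since positions of footprints within genes were not analysed here.

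The basal pair lay well below the spinous pair. Krt5 (ENSMUSG00000061527, chromosome 15, 101707070 to 101712898, minus strand), the type II keratin of basal cells, ranked 3 in both libraries with 14751 CPM in Ctrl 1 and 11531 CPM in Ctrl 2. Krt14 (ENSMUSG00000045545, chromosome 11, 100203162 to 100207548, minus strand), its type I partner, had 2716 CPM in Ctrl 1 and 3695 CPM in Ctrl 2 and ranked 22 and 13. The summed CPM of Krt1 and Krt10 was 7.14 times that of Krt5 and Krt14 in Ctrl 1 and 7.29 times in Ctrl 2, and per kb of coding sequence the ratios were 6.55 and 6.62. The libraries thus gave nearly the same balance between the summed spinous and basal pairs. By chain type they differed more for type I. Per kb, Krt1 to Krt5 stood at 5.50 in Ctrl 1 and 5.86 in Ctrl 2, and Krt10 to Krt14 at 11.3 and 8.60. Within the basal pair the ratio of Krt5 to Krt14 per kb was 4.53 in Ctrl 1 and 2.60 in Ctrl 2. In bulk libraries such as these, fewer cells of a type and less RNA per cell cannot be told apart. Exons of Krt10 and Krt5 overlap the annotated genes Gm11940 and Gm44323, and as the strand setting of the counting is not given in the sources used here, some reads of these genes cannot be assigned with certainty.

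Krt14 differs from the other 3 of these keratins in how much of its coding sequence it shares with relatives. Of all windows of 28 bases, about the length of a footprint, in the coding sequence of Krt14, 37.5% occur also in a gene at another locus, compared with 18.5% for Krt5, 0.604% for Krt10 and 0.212% for Krt1. Krt16, a type I keratin of the hair follicle and of stressed epidermis, shares 327 of the 1425 windows of Krt14, and Krt17, a type I keratin of hair follicles, shares 210. A stretch of 90 bases that Krt14 and Krt16 share but for 2 bases is printed with the differing bases in capitals. It lies at chr11:100207158-100207247 in Krt14 and chr11:100248593-100248682 in Krt16, both minus strand.
Krt14: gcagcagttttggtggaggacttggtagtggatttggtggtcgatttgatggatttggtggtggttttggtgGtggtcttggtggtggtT
Krt16: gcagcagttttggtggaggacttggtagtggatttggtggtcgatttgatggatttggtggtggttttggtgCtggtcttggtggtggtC
The longest run with no difference in it is 72 bases, longer than any footprint of 25 to 35 nt. A footprint from such a run matches both genes, and how the authors' counting treated these reads is not given in the sources used here. If no footprint from a shared window was counted, all reads of a gene came from its unshared windows. Dividing them by the unshared part of the coding length, a setting chosen after seeing the data, gives a ratio of Krt5 to Krt14 of 3.47 in Ctrl 1 and 2.00 in Ctrl 2.

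The type II keratins Krt6a and Krt6b, which are known from the hair follicle companion layer and from wounded epidermis, share still more. Windows found in another gene make up 77.3% of Krt6a and 78.1% of Krt6b. Of the 1632 windows of Krt6a, 1133 occur in Krt6b, so the 2 genes are not fully separate observations. Both genes differed more between libraries than any other of the 10 highest keratins. Krt6a had 88 reads (94.3 CPM) in Ctrl 1 and 253 reads (405 CPM) in Ctrl 2, and Krt6b had 82 reads (87.8 CPM) and 298 reads (477 CPM). Their frequent type I partner Krt16 did not share this pattern, with 860 CPM in Ctrl 1 and 756 CPM in Ctrl 2. Of the windows of Krt16, 60.7% occur in another gene.

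All 32 keratins listed held 14.3% of footprints, 15.0% in Ctrl 1 and 13.5% in Ctrl 2, and Krt1, Krt10, Krt5 and Krt14 made up 94.0% of that. The 15 type II genes, all on chromosome 15, held 10.7% and 8.98% of footprints, and the 17 type I genes, of which 16 lie on chromosome 11, held 4.30% and 4.55%. After these 4 genes came Krt79 (2563 CPM in Ctrl 1 and 2445 CPM in Ctrl 2), a type II keratin of the hair canal, Krt15 (1988 and 2184 CPM), a type I keratin of basal cells, and Krt17 (1404 and 1682 CPM). A step followed. No other keratin but Krt16 reached 500 CPM in either library.

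Keratins of other epithelia and of the hair follicle spanned the lower levels of the class. Krt8 and Krt18, the pair of simple epithelia and Merkel cells, had 4 and 2 reads in Ctrl 1 and 3 and 4 reads in Ctrl 2. The inner root sheath keratins Krt71, Krt73, Krt25, Krt27 and Krt28 were present with 41 to 91 reads in Ctrl 1 and 22 to 47 reads in Ctrl 2. Krt2, a type II keratin of the upper spinous layers of adult skin such as that of ear and sole, had 2 reads in Ctrl 1 and 3 in Ctrl 2. Krt77, another type II keratin, had 130 and 112 CPM. Krt12, known from the cornea, differed between libraries with 25 reads in Ctrl 1 and 65 in Ctrl 2, and none of its windows occur in another gene.

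**Figure D2:**
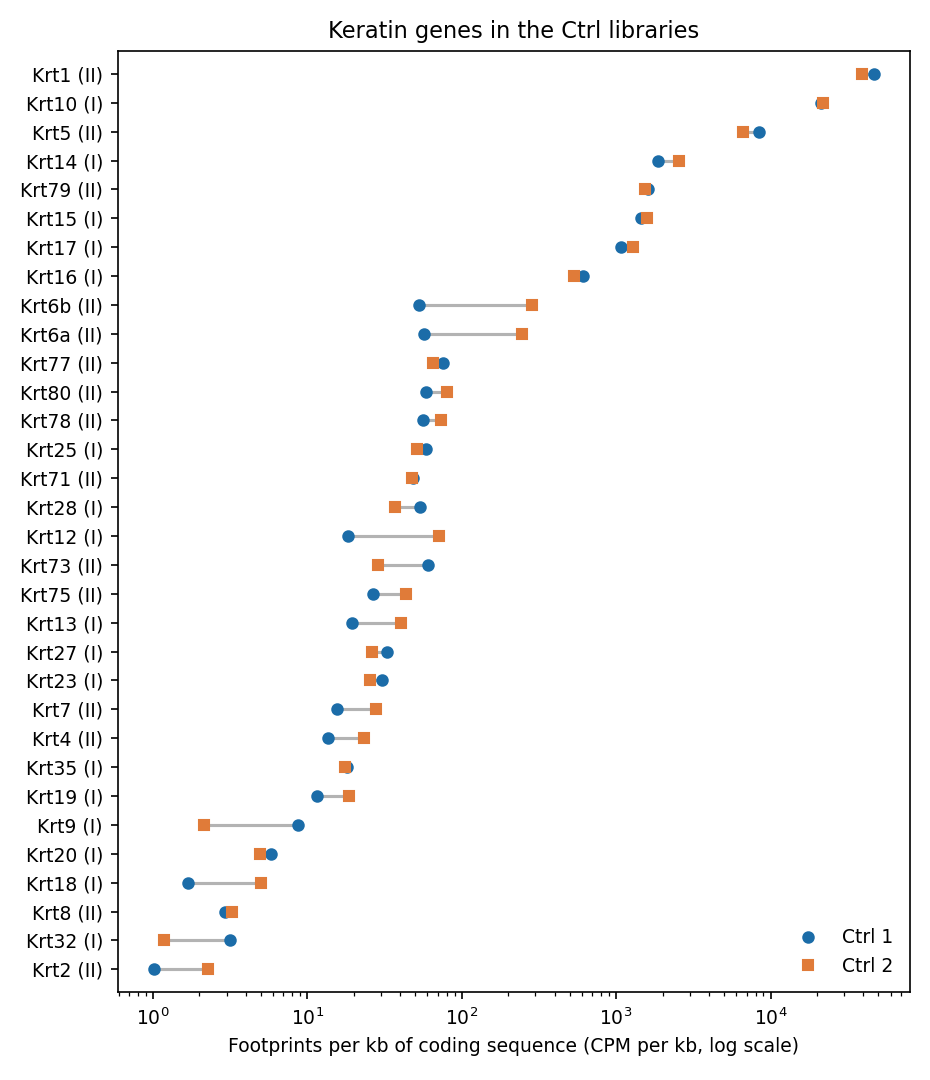
Footprints per kb of coding sequence (CPM per kb, log scale, horizontal axis) of the 32 keratin genes, ordered by mean, with circles for Ctrl 1, squares for Ctrl 2 and the keratin type (I or II) beside each name. Krt1 and Krt10 stand above all others in both libraries, and Krt6a and Krt6b show the widest gaps between libraries among the 10 highest keratins.

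Genes were also grouped into 22 classes by symbol. These classes cover 1902 genes and 49.6% of footprints. Desmosomes and other cell junctions came second to keratins, with 46 genes holding 5.37% of footprints in Ctrl 1 and 4.99% in Ctrl 2. Dsp, which encodes desmoplakin, the linker between desmosomes and keratin filaments, ranked 4 in both libraries with 11782 CPM in Ctrl 1 and 8668 CPM in Ctrl 2. Perp, a small membrane protein of desmosomes, had 5226 and 6228 CPM. The desmosomal cadherins Dsc3 (5340 and 5072 CPM), typical of lower layers, and Dsc1 (3144 and 3836 CPM), typical of upper layers, and the plaque proteins Jup (4447 and 4526 CPM) and Pkp1 (3348 and 2999 CPM) completed the 6 highest junction genes. Cdh1 (3106 and 2450 CPM) and Ctnnb1 (3046 and 2628 CPM), the cadherin and catenin of adherens junctions, and Gja1 (2822 and 2581 CPM), the connexin of gap junctions, followed. Dsp, Pkp1, Cdh1 and Ctnnb1 were higher in Ctrl 1, whereas Perp and Dsc1 were higher in Ctrl 2.

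The cornified envelope and filaggrin family, 46 genes, held 2.58% of footprints in Ctrl 1 and 3.12% in Ctrl 2. Its leading members were Dmkn (4471 and 5236 CPM), Krtdap (2964 and 3445 CPM), a small secreted protein of differentiating keratinocytes, Flg (2922 and 3364 CPM), the filaggrin precursor that bundles keratin filaments, and Lor (2335 and 3437 CPM). All 4 were higher in Ctrl 2. Within the class 38 of 46 genes were higher in Ctrl 2 and 8 in Ctrl 1, while 45.8% of all 10327 genes were higher in Ctrl 1. Involucrin (Ivl), an early envelope scaffold, was lower than these, at 126 and 208 CPM. Of the late envelope genes, Lce1a1 had 39 reads in Ctrl 1 and 35 in Ctrl 2, Lce1c 31 and 38, and Lce1g 3 and 14. Of the 119 protein-coding genes whose symbols fall in this class, 73 were not listed. These had a median of 52.1% of their windows in another gene. The GENCODE transcript used for Flg has 1071 coding bases, far fewer than the repeat-rich filaggrin precursor is known to need, so no value per kb is given for Flg.

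Cytoskeletal genes other than keratins, 72 in all, held 4.05% of footprints in Ctrl 1 and 3.44% in Ctrl 2. Ahnak, a giant scaffold protein beneath the plasma membrane, ranked 5 in Ctrl 1 with 10045 CPM and 6 in Ctrl 2 with 5821 CPM. Its coding sequence of 16968 bases brings this to 592 and 343 CPM per kb, far below Actb (3534 and 4223 CPM per kb), the cytoplasmic beta-actin. Of the windows of Actb, 49.4% occur in other genes. The nonmuscle myosin Myh9 (2474 and 1777 CPM) and the nuclear lamin gene Lmna (1976 and 2030 CPM) were next.

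Genes for anchorage to the basement membrane, 52 in all, held 2.08% and 1.88%. Their coding sequences are long, with a median of 3558 bases. Per kb of coding sequence their share was 0.564% in Ctrl 1 and 0.496% in Ctrl 2, and they made up 0.504% of the listed genes. They were led by Hspg2 (1671 and 1876 CPM), which encodes the proteoglycan perlecan, the linker Plec (1948 and 1222 CPM), Col17a1 (1297 and 1379 CPM) and Frem2 (1253 and 1386 CPM), an anchoring protein of the developing skin. Col17a1, Itgb4 and Itga6 are the genes of interest in the series title. They encode the transmembrane collagen XVII and the paired integrin chains of the hemidesmosome. In the control landscape Col17a1 ranked 71, Itgb4 ranked 105 with 1010 and 764 CPM, and Itga6 ranked 162 with 748 and 550 CPM. Per kb of coding sequence they stood at 294 and 313 CPM per kb for Col17a1, 185 and 140 for Itgb4, and 228 and 168 for Itga6. Both integrin chains were higher in Ctrl 1 and Col17a1 was not. Mettl14, the methyltransferase subunit whose floxed allele these animals carry, had 27.9 CPM in Ctrl 1 and 27.2 CPM in Ctrl 2, from 26 and 17 reads, and ranked 5434 of 10327.

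Proteases and their inhibitors held 1.84% and 2.10%, and the members at the top were inhibitors. Stfa3, a stefin that inhibits cysteine proteases, had 3231 CPM in Ctrl 1 and 3371 CPM in Ctrl 2. Serpinb5, also known as maspin, had 2444 and 2030 CPM, and Spink5, which encodes the inhibitor of the kallikreins that shed corneocytes, had 1056 and 1714 CPM. Klk5, a kallikrein of that kind, had 106 and 202 CPM. Lipid genes held 1.69% and 2.08%, led by Psap (2268 and 2017 CPM), the saposin precursor, and by Elovl1 (1244 and 1532 CPM) and Elovl4 (1156 and 1541 CPM), elongases of the very long fatty acids of barrier ceramides. Apoe, which encodes a lipid carrier, had 899 CPM in Ctrl 1 and 1793 CPM in Ctrl 2. Among S100 proteins and annexins, Anxa2 (2986 and 2421 CPM) and Anxa1 (2555 and 2049 CPM), both calcium-dependent membrane binders, stood out, and the class held 0.885% and 0.804%.

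Transcription factors were many and low. The 395 genes of that class held 1.67% of footprints in Ctrl 1 and 1.83% in Ctrl 2, and their median was 16.3 CPM, against 30.2 CPM over all genes. The highest was Trp63, the p63 regulator of stratified epithelia, with 786 and 897 CPM, followed by Klf5 with 611 and 785 CPM. DNA replication and mitosis genes held 0.805% and 0.888%, led by the proliferation marker Mki67 with 690 and 697 CPM.

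**Figure D3:**
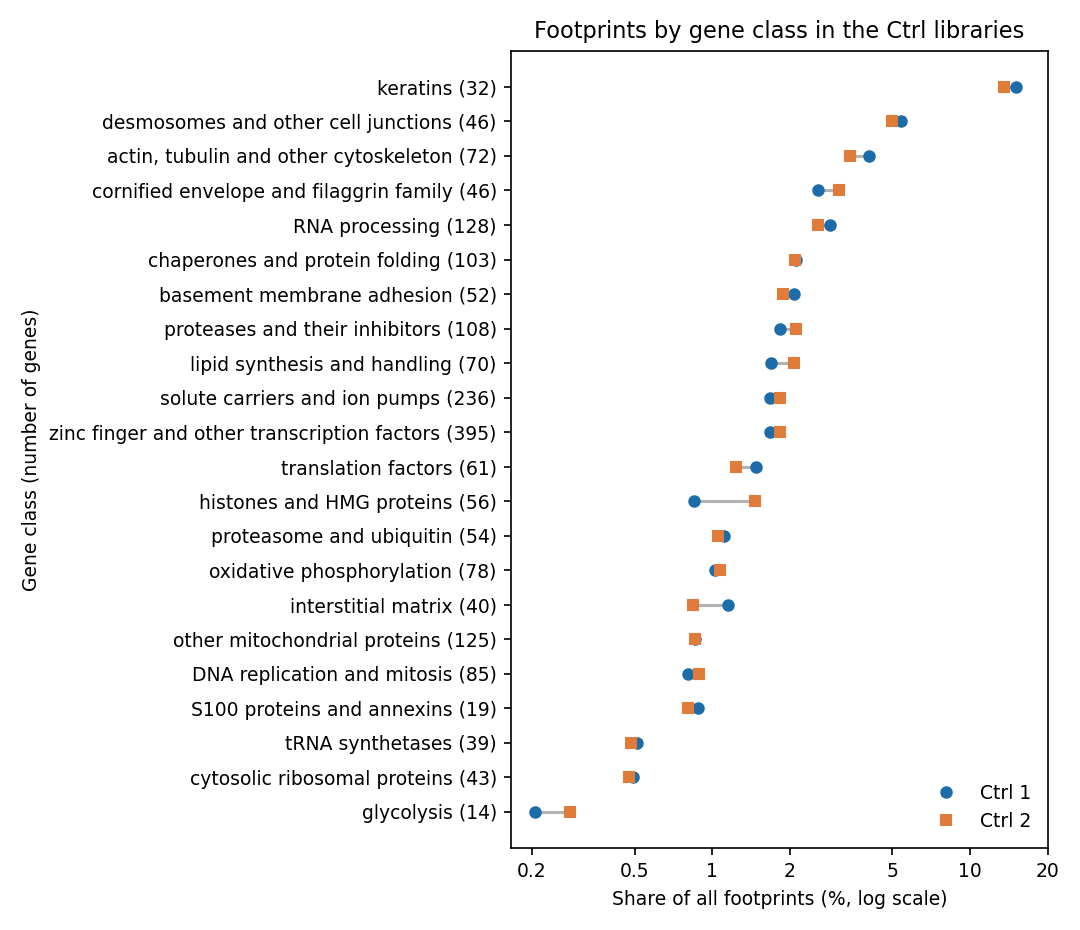
Share of all footprints (%, log scale, horizontal axis) of 22 gene classes, with the number of listed genes beside each name, circles for Ctrl 1 and squares for Ctrl 2. Keratins lead with 15.0% in Ctrl 1 and 13.5% in Ctrl 2, and histones, interstitial matrix and glycolysis show the widest gaps between libraries on this scale.

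Genes of the translation machinery took a small share. Cytosolic ribosomal proteins, in many cell types among the most heavily translated messages, held 0.492% of footprints in Ctrl 1 and 0.478% in Ctrl 2. They made up 0.416% of the listed genes. Their coding sequences are short, with a median of 453 bases. Per kb of coding sequence their share was 1.14% in Ctrl 1 and 1.06% in Ctrl 2. The table lists 43 of the 91 protein-coding genes whose symbols fall in this class. Ribosomal protein genes have many processed pseudogene copies, and a median of 86.4% of the windows of the 43 listed genes occur in another gene. Of the 48 genes that were not listed, 40 had at least 90% of their windows in another gene, and the median was 100%. Among listed members the level was lower where sharing was higher. Rpl8, with 11.4% of windows shared, had 1060 and 981 CPM per kb, and Rps3, with 22.2% shared, had 589 and 615 CPM per kb. Rps27l, named after its values were seen, went against this order, with 40.3% shared and 37.4 and 50.9 CPM per kb. The 18 members with at least 90% of windows shared had a median of 41.9 CPM per kb. Across the 43 genes Spearman's rho between sharing and CPM per kb was -0.61. This is a correlation across genes of the same libraries, and genes are not independent replicates. The part of read assignment in the low share was not tested.

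**Figure D4:**
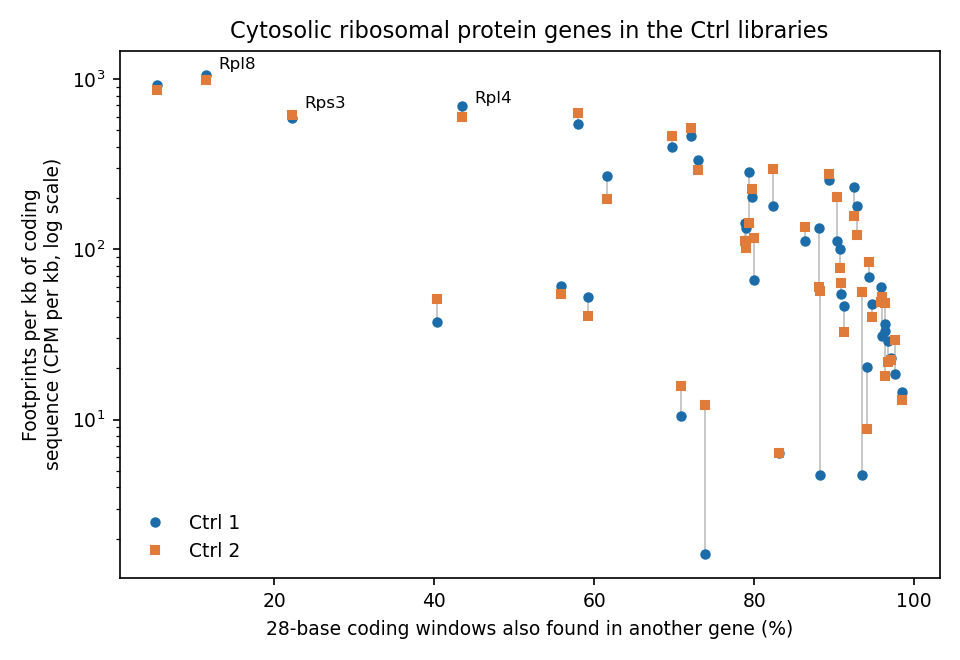
Footprints per kb of coding sequence (CPM per kb, log scale, vertical axis) of the 43 listed cytosolic ribosomal protein genes against the share of their 28-base coding windows also found in another gene (%), with circles for Ctrl 1 and squares for Ctrl 2 joined by a line. Rpl8, Rps3 and Rpl4, with under 50% of windows shared, lie between 589 and 1060 CPM per kb, Rps27l, with 40.3% shared, lies at 37.4 and 50.9, and 15 of the 18 genes with at least 90% shared have a mean below 100.

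Other parts of the translation machinery shared less sequence. Translation factors, 61 genes of 75 annotated, held 1.48% and 1.24%, led by Eef2 (2249 and 1782 CPM), the elongation factor that moves the ribosome along, and by Eif4g1 (1252 and 969 CPM), the scaffold of cap-dependent initiation. Eef1a1, which delivers aminoacyl-tRNA, had 1220 and 910 CPM, with 89.4% of its windows in other genes. Transfer RNA synthetases, with 39 of 40 annotated genes listed, held 0.512% and 0.487% and ranged up to 431 CPM for Eprs, the enzyme for glutamate and proline.

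Genes of energy metabolism were also measured. Oxidative phosphorylation held 1.03% and 1.07% and was led by the ATP synthase subunits Atp5b (1862 and 1926 CPM) and Atp5a1 (1580 and 1299 CPM). Glycolysis held 0.206% and 0.280% over 14 genes, and the glucose carrier Slc2a1, with no window shared, had 452 and 502 CPM. The glycolytic enzyme genes Aldoa, Ldha and Pkm, with 46.7%, 61.7% and 79.8% of windows shared, had 281, 329 and 220 CPM in Ctrl 1 and 434, 348 and 316 CPM in Ctrl 2. Among all listed genes, 442 had 50% or more of their windows in another gene, and these held 2.46% of footprints.

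Ranking by footprints per kb of coding sequence changed the order of the top genes. Krt1 and Krt10 kept the top places, and Stfa3 (10455 and 10909 CPM per kb), Krtdap (9686 and 11257), Lgals7 (9913 and 10791), an epithelial galectin, and Perp (9026 and 10756) came before Krt5 (8477 and 6627). Ly6d (6064 and 6421), a membrane protein of stratified epithelia, and Calm4 (5937 and 4987), a calmodulin-like protein of the epidermis, followed, while Krt14 ranked 23. Ranks per kb here and below count Flg at its short coding length of 1071 bases. Dsp fell back to 1362 and 1002 CPM per kb. Longer coding sequences took a larger part of the footprints than of the density. The 541 genes with at least 4800 coding bases held 11.5% of footprints and 2.09% of the summed density, and the 1107 genes under 600 coding bases held 7.34% and 24.8%.

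Marker lists were summed to describe the labelled cells. The lists were chosen with earlier results of these data known, so they are no independent check of the cell type. All 9 basal markers were listed and summed to 24245 and 22039 CPM, mostly Krt5 and Krt14. All 9 spinous markers were listed and summed to 139520 and 128270 CPM, mostly Krt1 and Krt10. All 17 granular markers were listed and summed to 10339 CPM in Ctrl 1 and 14017 CPM in Ctrl 2. All 11 hair follicle markers were listed and summed to 4772 and 5071 CPM, mostly Krt79 and Krt17, and the follicle signal Shh had 110 and 127 CPM. The labels' epidermal keratinocytes therefore carried the markers of all layers and of follicles.

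Markers of other cells ranged from none listed to levels like those of the follicle list. The 10 endothelial and 11 muscle markers had no listed member. As every listed gene has at least 1 read in each library of the series, an unlisted marker may still have reads in Ctrl. Fibroblast markers, 12 of 13 listed, summed to 5071 CPM in Ctrl 1 and 3502 CPM in Ctrl 2. Postn, a matrix protein, gave 1870 and 1349 of these. Of the 12 markers 9 were higher in Ctrl 1, against 45.8% of all listed genes. Col1a1, a chain of fibrillar collagen, had 371 reads (397 CPM) in Ctrl 1 and 16 reads (25.6 CPM) in Ctrl 2, the fibrillar collagen gene Col3a1 had 287 and 36 reads, and Lum, which encodes the proteoglycan lumican, had 17 reads and 1 read. Other members differed less or the other way. The collagen gene Col5a1 had 130 and 88.1 CPM, the intermediate filament gene Vim 538 and 458 CPM, and the matrix gene Sparc 422 and 383 CPM, while Fbln1, Thy1 and Pdgfra were higher in Ctrl 2, with 484, 33.6 and 16.0 CPM there and 381, 13.9 and 11.8 CPM in Ctrl 1. Melanocyte markers, 9 of 9 listed, went the other way with 860 CPM in Ctrl 1 and 1536 CPM in Ctrl 2, led by Pmel (301 and 583 CPM) and Dct (284 and 550 CPM). Immune markers, 10 of 14 listed, summed to 454 and 737 CPM, led by Cd74 (146 and 248 CPM) and Csf1r (125 and 128 CPM). Red cell markers, 6 of 8 listed, summed to 121 and 81.7 CPM. Markers of periderm, simple epithelium and Merkel cells, 8 of 8 listed, summed to 98.5 and 171 CPM, led by Krt13 (25.7 and 52.9 CPM). Nerve and Schwann cell markers (3 of 7 listed) and adipocyte markers (2 of 5) summed to under 100 CPM in either library.

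The positions of these genes in the genome followed their families. Windows of 1 Mb were compared by their share of footprints. The window of chromosome 15 from 101000001 to 102000000 held 9.88% of all footprints (10.7% in Ctrl 1 and 9.01% in Ctrl 2) with 20 listed genes, of which 14 are keratins. The type I keratin cluster on chromosome 11 spans the windows from 99000001 to 100000000, with 3.73%, and from 100000001 to 101000000, with 1.43%. The window of chromosome 7 from 30000001 to 31000000, which holds Dmkn, Krtdap and Sbsn, took 1.12%, and that of chromosome 13 from 38000001 to 39000000, which holds Dsp, took 1.04%. Chromosome 15 as a whole carried 13.5% of footprints on 4.16% of the listed genes.

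The libraries differed by more than counting alone gives. Over all 10327 genes 66.9% lay within 1.5-fold and 83.3% within 2-fold of each other. The SD of the log2 ratio of Ctrl 1 to Ctrl 2 was 0.79, against an SD of 0.62 from counting alone. Over the 1098 genes with at least 100 reads in both, 89.3% lay within 1.5-fold and 98.6% within 2-fold of each other, and the SD was 0.37, against 0.14 from counting alone. Pearson's r of log2 CPM was 0.945 and Spearman's rho 0.880 over these genes, values across genes rather than samples. No test was made, as 2 libraries of 1 group give none.

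In several classes most members differed between libraries in the same direction. For scale, 45.8% of all 10327 genes were higher in Ctrl 1. Histones and HMG proteins held 0.851% of footprints in Ctrl 1 and 1.47% in Ctrl 2, and 7 of 56 genes were higher in Ctrl 1. A median of 71.0% of the windows of these 56 genes occur in another gene. Members of the class are thus not fully separate observations. Of the 93 protein-coding genes whose symbols fall in this class, 37 were not listed. Linker histone genes led, Hist1h1e with 1422 CPM in Ctrl 1 and 2639 CPM in Ctrl 2, Hist1h1c with 1400 and 2102 CPM, and Hist1h1d with 871 and 1810 CPM. Over the 13 members with at least 100 reads in both libraries the median log2 ratio of Ctrl 1 to Ctrl 2 was -0.75. The corresponding medians were -0.58 for 6 glycolysis genes and -0.38 for 20 cornified envelope genes. They were -0.34 for 27 transcription factors and -0.30 for 28 lipid genes. Over all 395 transcription factors the median was 0.0041 and 203 were higher in Ctrl 1, against a median of -0.08 over all 10327 genes. Their summed share was 1.67% in Ctrl 1 and 1.83% in Ctrl 2. The direction for that class thus depended on the measure. At the other end the medians were 0.23 for 26 translation factors and 0.27 for 14 interstitial matrix genes. Members went both ways, with log2 ratios from -1.35 to 0.37 among the histones and from -0.41 to 0.85 among the matrix genes. Matrix genes held 1.15% of footprints in Ctrl 1 and 0.84% in Ctrl 2, with 31 of 40 genes higher in Ctrl 1, led by Postn, Fn1 (1395 and 846 CPM) and Col12a1 (1036 and 699 CPM). The median over all 1098 genes was -0.04. With 1 read worth 1.07 CPM in Ctrl 1 and 1.60 in Ctrl 2, the cut of 100 reads is higher in CPM in Ctrl 2. Genes higher in Ctrl 1 are thus left out more readily, which bears on these medians.

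**Figure D5:**
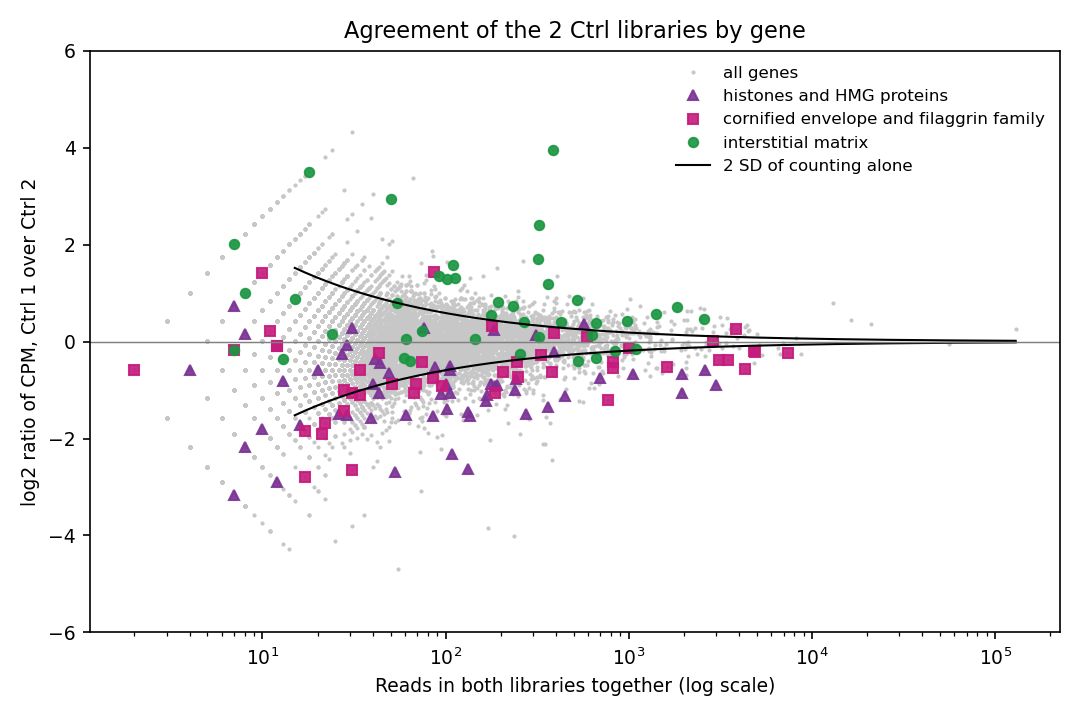
log2 ratio of CPM in Ctrl 1 over Ctrl 2 (vertical axis) against the reads of both libraries together (log scale) for 10327 genes, with 3 classes marked and black curves at 2 SD of counting alone. Histones and cornified envelope genes lie mostly below 0 and interstitial matrix genes mostly above 0, and many genes lie outside the curves.

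GC content and coding length moved with this gap. Among the 1098 genes, those with under 45% GC in the coding sequence had a median log2 ratio of 0.15 (124 genes). The medians fell in order through 0.08, -0.03 and -0.14 to -0.35 for the 84 genes with 60% GC or more. Of these 84 genes 16 were higher in Ctrl 1, against 45.1% of the 1098. By coding length the medians rose from -0.22 for the 70 genes under 600 bases to 0.14 for the 147 genes of 4800 bases or more. Spearman's rho of the log2 ratio, across genes, was -0.35 with GC content and 0.27 with coding length. Histones were rich in GC, with a median of 61.8% over their 13 genes, and short, with a median of 582 bases. Relative to the median of genes in the same GC range, their median log2 ratio was -0.53, that of the cornified envelope -0.27, that of transcription factors -0.10 and that of the matrix 0.26. The SD over the 1098 genes was 0.34 after this step, against 0.37 before it. The part of GC content, length and cell makeup in the gap was not tested.

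The genes at both ends of the ratio came from many classes. The lists below hold genes with at least 100 reads in both libraries, a cut that is higher in CPM in Ctrl 2. They leave out genes with fewer reads in either library, such as Col1a1 and Krt6b, and genes higher in Ctrl 1 more readily. The 10 highest ratios of Ctrl 1 to Ctrl 2 belonged to Tenm2, Bzw1, Lrba, Syne2, Col14a1, Dnaja2, Smc3, Ahnak, Ddx6 and Copb1. Syne2, a giant nuclear envelope linker, had 799 CPM in Ctrl 1 and 433 CPM in Ctrl 2. The 10 lowest were Cyp2g1, Scd1, Hist2h4, Agpat5, Serpina12, 2310050C09Rik, Cdsn, Cst6, Irs1 and H2afx. Cyp2g1, a cytochrome P450, had 126 CPM in Ctrl 1 and 405 CPM in Ctrl 2, Scd1, a fatty acid desaturase of sebaceous glands, had 127 and 377 CPM, and Cdsn, which encodes the corneodesmosome protein corneodesmosin, had 322 and 747 CPM. The widest gap in a marker gene was that of Skint3, an immunoglobulin-like gene of the epidermis, with 3 reads in Ctrl 1 and 52 in Ctrl 2.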

How the data were processed

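The libraries are ribosome profiling of mouse epidermal keratinocytes. Cells were lysed in cycloheximide and the lysate digested with RNase I, and footprints of 25 to 35 nt were cut from a gel, per the labels' protocols. The submitters' processing notes name fastp, HISAT2 and HTSeq with the build GRCm38. No version of these tools is given in the sources used here, nor is the strand setting, the counted feature or the handling of reads with several matches. The deposited table holds CPM values that the authors computed over the listed genes, each column summing to 1000000. All values were whole multiples of 1 read (tolerance 1e-06 reads), so read numbers were recovered. Every listed gene had at least 1 read in each library of the series.

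Identifiers were matched to GENCODE M21 (GRCm38), 10323 of 10327. Coding length was that of 1 transcript per gene and excludes the stop codon. CPM per kb divides CPM by it. Sharing is the percentage of 28-base coding windows found in an annotated transcript of a gene at another locus. Exons of 3783 genes overlap another gene. Classes and marker lists go by symbol, and each gene is in 1 class. Members and lists were chosen with earlier results of these data known. Genes named are the markers, Mettl14, the 30 highest by CPM, the 20 highest per kb, up to 4 of each class, the 10 highest and lowest library ratios, all keratins and list members; a few of them are not reported here. Itgb4 and Itga6 are list members. No test was made. Counting spread of a log2 ratio is the Poisson value at both depths, and the code was tested on simulated data. Analyses used Python 3.11.15, numpy 2.4.6, pandas 2.3.3 and scipy 1.17.1.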

Additional observations from a re-analysis of the deposited data

How the results depend on the processing

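Leaving out either library moved none of the values below by over 1 SD of the libraries, which the arithmetic of 2 values fixes; the share of the 10 highest genes then ran from 16.3% to 18.5% and the keratin share from 13.5% to 15.0%. Pooling reads moved no share either. Without genes whose exons overlap another gene, which drops Krt10 and Krt5, the 10 highest genes held 19.0% and 256 genes held 50%, against 437; the shares became 5.68% for junctions, 3.54% for the cornified envelope and 0.466% for ribosomal proteins. Per kb of coding sequence the shares were 10.2% for the 4 marker keratins, 10.98% for all keratins, 3.85% for junctions, 4.69% for the cornified envelope and 1.10% for ribosomal proteins. The cornified envelope share per kb counts Flg at its short coding length of 1071 bases and may therefore be too high. Over genes with under 50% of windows shared, a setting added after seeing the data, ribosomal proteins held 0.266%. The SD of the log2 ratio was 0.69 with log2(CPM + 1), 0.52 with at least 10 reads in both libraries and 0.37 with at least 100. Of 115 class medians of the log2 ratio under other settings 42 moved by over their standard error over genes, and none changed sign with both values beyond that error. No paired analysis was possible because the results come from 1 group and no test. Depth limits low genes, since 1 read is worth 1.07 CPM in Ctrl 1 and 1.60 in Ctrl 2.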

Other observations

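Several abundant genes fell in no class above or led a class not yet described. Itm2b, a transmembrane protein cleaved by furin, had 3116 CPM in Ctrl 1 and 2644 CPM in Ctrl 2. Aqp3, the water and glycerol channel of basal keratinocytes, had 2468 and 2708 CPM. Cd9, a tetraspanin, had 1520 and 1679 CPM. Among RNA processing genes, which held 2.86% of footprints in Ctrl 1 and 2.57% in Ctrl 2, the nucleolar protein gene Ncl had 1853 and 1150 CPM and Hnrnpu had 1266 and 1296 CPM.

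Chaperones and folding enzymes held 2.11% in Ctrl 1 and 2.09% in Ctrl 2, and their members differed more than the sum. Hsp90ab1, a cytosolic chaperone, had 2497 and 2048 CPM, whereas Hspa5, the main chaperone of the endoplasmic reticulum, had 787 and 1242 CPM. Solute carriers and ion pumps, 236 genes, held 1.68% and 1.83%. Proteasome and ubiquitin genes held 1.11% and 1.05% and were led by Uba1, the ubiquitin-activating enzyme, with 1108 and 1088 CPM. The coding sequence of Tmsb4x, which encodes the actin-binding peptide thymosin beta 4, is only 150 bases long, and at 2007 CPM per kb in Ctrl 1 and 3610 CPM per kb in Ctrl 2 it ranked 16 by density and 294 by CPM.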
